A study of Rattus norvegicus with 6 samples.

Results

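The 10 genes described here, all known to be switched on by growth factor signalling through ERK, were followed in rat back skin after afatinib or vehicle. They were chosen by Ensembl identifier from the 33692 features of the count tables: Fos (ENSRNOG00000008015), Jun (ENSRNOG00000026293), Junb (ENSRNOG00000042838), Atf3 (ENSRNOG00000003745), Egr1 (ENSRNOG00000019422), Nr4a1 (ENSRNOG00000007607), Dusp1 (ENSRNOG00000003977), Dusp6 (ENSRNOG00000023896), Myc (ENSRNOG00000004500) and Ccnd1 (ENSRNOG00000020918). All 10 were found in each of the 6 tables and passed the filter on low counts. Neither the tables nor the reference table used here pairs the Ensembl identifiers with symbols. The symbols are those given with the identifiers when the genes were chosen. Whole back skin of Rattus norvegicus was frozen and total RNA was sequenced from 3 libraries labelled vehicle and 3 labelled afatinib. Afatinib irreversibly inhibits the ErbB receptor tyrosine kinases, among them the epidermal growth factor receptor (EGFR). The series asked for early changes in skin under such inhibitors, which often cause a rash. The sources used here do not give strain, sex, age, dose, vehicle or duration. Nor do they say that each library came from its own animal, so the p-values measure only the spread between these libraries, which may be technical. The skin was not checked against cell type markers, because no other identifier could be paired with a symbol.

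When a growth factor binds an ErbB receptor, the Ras, Raf and MEK kinases pass the signal to ERK, which enters the nucleus. There it activates transcription factors at the promoters of immediate early genes, which need no new protein to be transcribed. The products include the AP-1 factors Fos, Jun and Junb, the zinc finger factor Egr1 and the phosphatases that switch the kinases off again. In the epidermis this pathway is known for keeping basal keratinocytes dividing, and immediate early genes also respond quickly to stress and injury. In whole skin, fewer cells of a type and less RNA per cell cannot be told apart.

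The libraries held between 15304166 and 18494281 counts, and every member had at least 131 counts in each of them. Values are read counts scaled to a common depth (CPM) on library sizes scaled by TMM, a method that assumes most features do not differ. With the raw totals, the median difference of all tested features moved from 0.00 to 0.12 on the log2 scale, and differences below are relative to the TMM scale. Afatinib replicate 3 lay nearer to the vehicle libraries than to afatinib replicate 1. Over all tested features its log2 CPM correlated by 0.907 and 0.944 with afatinib replicates 1 and 2, and by 0.943 to 0.960 with the vehicle libraries. Afatinib replicates 1 and 2 correlated by 0.967. Afatinib replicate 1 correlated by 0.830 to 0.907 with the vehicle libraries, so it lay far from them as well as from afatinib replicate 3. Among the vehicle libraries, replicate 2 correlated by 0.944 and 0.931 with replicates 1 and 3, which correlated by 0.973. Vehicle replicate 2 thus also lay further from its group, though by less than afatinib replicate 3 from afatinib replicate 1. The difference of each gene is therefore given with and without afatinib replicate 3. Afatinib replicate 3 was singled out by these same data, and leaving it out enlarged the difference in 75.8% of all features. The p-values and intervals without it are therefore descriptions and not independent tests.

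With all 6 libraries, no member reached an adjusted p under 0.05 (edgeR quasi-likelihood, 15497 features tested), and neither did any other feature (0% of those tested). At an unadjusted p under 0.05 there were 2 of the 10 members, Dusp6 and Myc, both higher after afatinib, where 19.5% of all tested features reached that level, and 10.3% did so with a higher value after afatinib. The same 2 genes were those whose afatinib libraries all lay above the vehicle libraries, where 26.2% of the tested features had groups that did not overlap and 12.9% had them in this direction. The counts among the members were near these shares in either direction. In 9 of the 10 members the fitted difference was above 0, against 49.7% of all tested features, and the median difference was 0.49 on the log2 scale over the members and 0.00 over all features. Jun was the member below 0. Without afatinib replicate 3, 8 of the 10 members were above 0, against 48.3% of all tested features, and the medians were 0.56 and -0.02. The sign for Egr1, Atf3 and Nr4a1 depended on the scaling or on single libraries. The members were chosen with earlier results of these data known, and many of them moved together between libraries. These counts and medians are therefore descriptions, and no test was made of them.

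**Figure D1:**
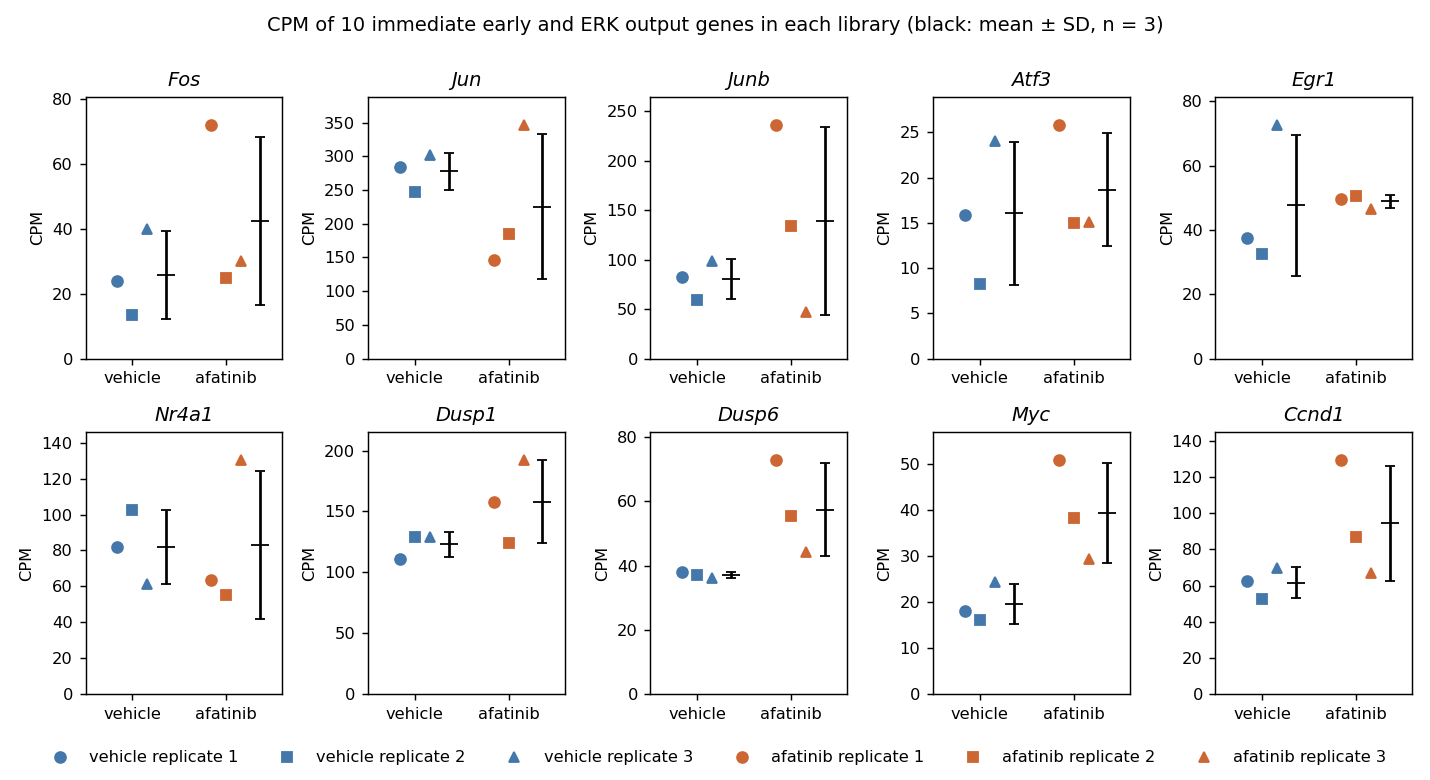
CPM on TMM-scaled library sizes (vertical axes, each from 0) of the 10 genes in the 3 vehicle and 3 afatinib libraries, 1 symbol per library, with the mean and SD of each group (n = 3) in black. The afatinib libraries of Dusp6 and Myc all lie above the vehicle libraries, and in the other 8 genes the groups overlap.

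The AP-1 factors were examined first. AP-1 is a pair of leucine zipper proteins, usually 1 of the Fos family with 1 of the Jun family. Fos had 23.9, 13.3 and 40.0 CPM in vehicle replicates 1, 2 and 3 and 72.2, 24.9 and 30.3 CPM in afatinib replicates 1, 2 and 3. Afatinib replicate 1 alone lay above all vehicle libraries, and the other two lay within their range. The mean was 25.8 ± 13.5 CPM under vehicle and 42.4 ± 25.9 CPM under afatinib (SD, n = 3 each). The log2 difference of 0.72 gave an edgeR quasi-likelihood adjusted p = 0.463, and it was 0.91 (adjusted p = 0.386) without afatinib replicate 3. Without afatinib replicate 1 it was 0.10. That value was the lowest of those with 1 library left out.

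Jun is the partner with which Fos binds DNA. It had 284.2, 247.6 and 301.9 CPM in vehicle and 145.6, 184.3 and 347.2 CPM in afatinib replicates 1, 2 and 3. Afatinib replicates 1 and 2 lay below every vehicle library and replicate 3 above every one. The log2 difference was -0.30 (edgeR quasi-likelihood adjusted p = 0.614). Without afatinib replicate 3 it was -0.76 with an adjusted p of 0.0499, just under the threshold, and Jun then fell by 0.75 on the log2 scale in DESeq2, with an adjusted p of 0.000656. The adjusted p for Jun ran from 0.674 to 0.943 in edgeR when one of the other 5 libraries was omitted instead.

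Junb, a Jun family member that can oppose Jun at some AP-1 targets, had 82.9, 58.9 and 98.9 CPM in vehicle replicates 1, 2 and 3. Afatinib replicates 1 and 2 had 236.6 and 134.6 CPM, and replicate 3 had 47.0 CPM. Here the order of the afatinib libraries was the reverse of that of Jun, with replicates 1 and 2 above all vehicle libraries and replicate 3 below all of them. The highest afatinib library held 5.04 times the CPM of the lowest, against 1.68 times in vehicle. The log2 difference was 0.80 (edgeR quasi-likelihood adjusted p = 0.43), and 1.20 with an adjusted p of 0.0679 without afatinib replicate 3. In DESeq2 Junb was past the threshold without that library, at a log2 difference of 1.22 and an adjusted p of 0.00353. With all 6 libraries its adjusted p in DESeq2 was 0.369. Without afatinib replicate 1 the Junb difference was 0.18 (edgeR quasi-likelihood adjusted p = 0.892).

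Atf3, a stress-induced factor of the same zipper class, had 15.9, 8.26 and 24.1 CPM in vehicle replicates 1, 2 and 3, against 25.86, 15.02 and 15.13 CPM in the same order after afatinib. The groups overlapped almost wholly, with only afatinib replicate 1 above the vehicle range. Its log2 difference was 0.22 (edgeR quasi-likelihood adjusted p = 0.782), 0.34 without afatinib replicate 3 and -0.10 without vehicle replicate 2. The 95% interval of the difference ran from -0.72 to 1.29 in limma voom.

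Because the counts of 2 genes in 1 library share its depth and scaling, their ratio does not depend on either. Such a ratio also reflects the lengths of the transcripts, so it was compared only between libraries. There were 0.292, 0.238 and 0.328 Junb reads per Jun read in vehicle replicates 1, 2 and 3. In afatinib replicates 1, 2 and 3 there were 1.63, 0.730 and 0.135. Thus replicates 1 and 2 lay above and replicate 3 below every vehicle library. The means were 0.286 ± 0.0451 under vehicle and 0.830 ± 0.750 under afatinib (SD, n = 3 each), and afatinib replicates 1 and 2 alone averaged 1.18. For Fos the ratio to Jun was 0.0843, 0.0537 and 0.133 in vehicle and 0.496, 0.135 and 0.0872 in afatinib libraries. For Atf3 it was 0.0558, 0.0334 and 0.0798 in vehicle and 0.178, 0.0815 and 0.0436 in afatinib libraries. In all 3 ratios afatinib replicate 1 was the highest of the 6 libraries and replicate 3 the lowest of its group; the 3 ratios share the Jun counts. No test was made of these ratios, 8 of which were computed.

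**Figure D2:**
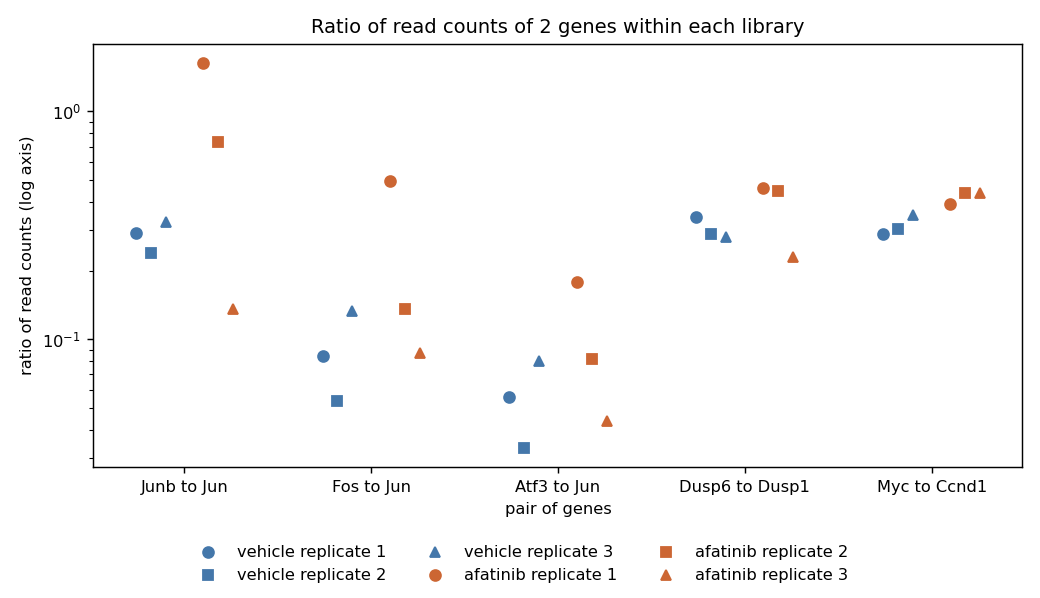
Ratio of the read counts of 2 genes within each library (vertical axis, log scale, no unit) for 5 pairs of genes, 1 symbol per library. The Junb to Jun ratio of afatinib replicate 3 (0.135) lies below all vehicle libraries and those of replicates 1 (1.63) and 2 (0.730) above them. The Myc to Ccnd1 ratios of the groups do not overlap, and those of the other pairs shown do. The Myc to Ccnd1 ratio was picked out after the values were seen, and no test was made of the ratios.

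Promoters are shown for the genes at the ends of these contrasts that the RefSeq table held (build GRCr8, matched by symbol, 5 of the 10 members): Junb and Nr4a1, in which afatinib replicate 3 was the lowest and the highest library, and the phosphatase pair Dusp1 and Dusp6. Each run gives the 250 bases before the annotated start, 5′ to 3′ on the + strand, at chr19:40080876-40081125 for Junb, chr7:134259888-134260137 for Nr4a1, chr10:17184603-17184852 for Dusp1 and chr7:35979354-35979603 for Dusp6. Capitals mark matches on either strand to TGACGTCA, the cAMP response element bound by CREB and ATF factors, or to its part TGACG, which lies in the full element on both strands.
Junb: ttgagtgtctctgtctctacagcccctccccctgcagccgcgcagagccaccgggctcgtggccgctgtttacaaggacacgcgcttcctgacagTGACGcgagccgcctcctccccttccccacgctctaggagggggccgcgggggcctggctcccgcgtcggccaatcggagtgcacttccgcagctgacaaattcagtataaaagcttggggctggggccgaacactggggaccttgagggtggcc
Nr4a1: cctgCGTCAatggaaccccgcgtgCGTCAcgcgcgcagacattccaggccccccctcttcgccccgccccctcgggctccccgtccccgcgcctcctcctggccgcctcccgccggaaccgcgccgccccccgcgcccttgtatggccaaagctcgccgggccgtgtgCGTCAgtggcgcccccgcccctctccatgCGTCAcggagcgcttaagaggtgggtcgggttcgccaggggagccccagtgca
Dusp1: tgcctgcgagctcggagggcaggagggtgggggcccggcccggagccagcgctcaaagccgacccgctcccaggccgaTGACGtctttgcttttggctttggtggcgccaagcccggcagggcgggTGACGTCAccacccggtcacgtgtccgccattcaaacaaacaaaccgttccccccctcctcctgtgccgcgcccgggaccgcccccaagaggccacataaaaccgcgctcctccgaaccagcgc
Dusp6: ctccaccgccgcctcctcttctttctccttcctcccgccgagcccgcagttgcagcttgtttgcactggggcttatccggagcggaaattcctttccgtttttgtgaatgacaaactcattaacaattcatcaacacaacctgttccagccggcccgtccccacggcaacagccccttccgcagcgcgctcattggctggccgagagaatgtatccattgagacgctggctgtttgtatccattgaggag
Nr4a1 held 4 matches to TGACG, Dusp1 held 3, of which 2 lie in its 1 full TGACGTCA, Junb held 1 and Dusp6 none. Egr1, whose sequence is not shown, held 2. Of the 5 member promoters, Egr1 included, 4 held TGACG and 1 held TGACGTCA, against 18.2% and 1.59% of 33469 promoters of the same length. The CArG box, which serum response factor binds downstream of ERK, was found 2 times in Egr1 and in no other of the 5, against 1.5% of all promoters. TGACTCA, the AP-1 site, was found in none of the 5 and in 4.05% of all. The promoters were not matched for base composition, and a match is a string of letters and not a measured site. The genes shown were picked with their values known, and no relation between the matches and the values was tested.

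Egr1, a zinc finger factor that is among the first transcripts after ERK activation, had 37.4, 32.7 and 72.7 CPM in vehicle replicates 1, 2 and 3, against 49.8, 50.4 and 46.6 CPM in the same order after afatinib. The afatinib libraries lay close together, and the vehicle libraries on both sides of them. Its coefficient of variation (SD over mean) was 46.0% in vehicle and 4.23% in afatinib libraries, the lower of these resting on the TMM scaling, since on raw totals it was 14.7%. The log2 difference was 0.04 (edgeR quasi-likelihood adjusted p = 0.946), with a limma voom interval from -0.59 to 0.85, and 0.07 (adjusted p = 0.917) without afatinib replicate 3. The difference was -0.17 without vehicle replicate 2 and 0.48 without vehicle replicate 3.

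Nr4a1 encodes the orphan nuclear receptor Nur77, an immediate early factor of many cell types. It had 81.7, 102.3 and 61.3 CPM in vehicle replicates 1, 2 and 3, against 63.2, 55.3 and 130.3 CPM in the same order after afatinib. As with Jun, afatinib replicate 3 was the highest of all 6 libraries, and replicates 1 and 2 lay at the lower end of the vehicle range or below it. The log2 difference was 0.02 (edgeR quasi-likelihood adjusted p = 0.977) with all libraries and -0.47 (adjusted p = 0.214) without afatinib replicate 3. It was also below 0 with upper quartile scaling and in limma voom.

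The phosphatases give the negative feedback of the pathway. Dusp1 encodes a nuclear phosphatase that inactivates p38, JNK and ERK kinases. It had 110.5, 128.6 and 129.3 CPM in vehicle replicates 1, 2 and 3, against 157.8, 124.0 and 192.2 CPM in the same order after afatinib. Afatinib replicates 1 and 3 lay above every vehicle library, while replicate 2 lay within their range. On raw library totals all 3 afatinib libraries lay above the vehicle libraries. On that scale 59.5% of all tested features had a difference above 0, against 49.7% with TMM. The share of all features without overlap was not computed on raw totals. The log2 difference was 0.36 (edgeR quasi-likelihood adjusted p = 0.32) and 0.19 (adjusted p = 0.424) without afatinib replicate 3.

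Dusp6 encodes a cytoplasmic phosphatase that acts chiefly on ERK and is widely used as a transcriptional readout of ERK activity. It had 38.0, 37.1 and 36.2 CPM in vehicle replicates 1, 2 and 3 and 72.9, 55.4 and 44.2 CPM in afatinib replicates 1, 2 and 3. The vehicle libraries were nearly alike, and each afatinib library was above them, with replicate 3 the nearest. The mean was 37.1 ± 0.916 CPM under vehicle and 57.5 ± 14.5 CPM under afatinib (SD, n = 3 each), 1.55 times as high, or 1.73 times without afatinib replicate 3. The log2 difference of 0.63 (limma voom standard error 0.19) had an unadjusted p of 0.0144 (edgeR quasi-likelihood, adjusted p = 0.202). DESeq2 gave an adjusted p of 0.0834. Without afatinib replicate 3 Dusp6 was higher by 0.78 with an adjusted p of 0.0356 in edgeR and of 0.000406 in DESeq2, and without any of the other 5 libraries the edgeR value lay between 0.321 and 0.457. A two-sided exact permutation test gave p = 0.1 for Dusp6 and for Myc, the smallest value that 3 against 3 libraries allow. Groups that do not overlap always give this value, so it adds nothing to that separation. For the other members the same permutation test gave p = 0.2 to 0.9.

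Within libraries there were 0.344, 0.289 and 0.280 Dusp6 reads per Dusp1 read in vehicle and 0.462, 0.446 and 0.230 in afatinib libraries. Afatinib replicates 1 and 2 were above and replicate 3 below all vehicle libraries. In replicate 3, Dusp1 was at the highest level of its group and Dusp6 at the lowest.

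Myc and Ccnd1 are the growth targets among the members. Myc encodes a transcription factor that drives ribosome and cell growth genes. It had 18.1, 16.1 and 24.4 CPM in vehicle replicates 1, 2 and 3, against 50.9, 38.2 and 29.3 CPM in the same order after afatinib. All afatinib libraries lay above all vehicle libraries, with afatinib replicate 3 and vehicle replicate 3 the closest across the groups. The mean was 19.6 ± 4.33 CPM under vehicle and 39.5 ± 10.9 CPM under afatinib (SD, n = 3 each), 2.02 times as high, or 2.28 times without afatinib replicate 3. Its log2 difference was 1.01 (limma voom standard error 0.26), with an unadjusted p of 0.00617 (edgeR quasi-likelihood, adjusted p = 0.191).

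In DESeq2, Myc was the 1 member of 10 that passed with all libraries (adjusted p = 0.0195, log2 difference 1.02 with a standard error of 0.30), where 6.78% of the features given an adjusted p passed, and 3.90% with a higher value after afatinib. That call rested on the choice of libraries: the DESeq2 adjusted p lay between 0.0109 and 0.153 when 1 library other than afatinib replicate 3 was left out, and it was above 0.05 in all of these but the one without vehicle replicate 3. Without afatinib replicate 3 the Myc difference was 1.18 with an adjusted p of 0.0369 in edgeR and 0.00027 in DESeq2.

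Ccnd1 encodes cyclin D1, which carries growth signals into the cell cycle. It had 62.4, 52.8 and 69.6 CPM in vehicle replicates 1, 2 and 3, against 129.5, 86.9 and 67.2 CPM in the same order after afatinib. Replicates 1 and 2 of the afatinib group lay above the vehicle libraries, and replicate 3 lay between the vehicle replicates 1 and 3. The log2 difference was 0.62 (edgeR quasi-likelihood adjusted p = 0.256) and 0.81 (adjusted p = 0.0621) without afatinib replicate 3. Without afatinib replicate 1 the Ccnd1 difference was 0.32 (edgeR quasi-likelihood adjusted p = 0.504). There were 0.290, 0.306 and 0.351 Myc reads per Ccnd1 read in vehicle and 0.393, 0.439 and 0.436 in afatinib libraries, so that the groups did not overlap in this ratio. Here afatinib replicate 3 lay with its own group. The ratio was 0.316 ± 0.0314 under vehicle and 0.423 ± 0.0259 under afatinib (SD, n = 3 each), with an afatinib mean of 0.416 without replicate 3, and it was picked out from the 8 after their values were seen.

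Leaving out afatinib replicate 3 gave a larger size of the log2 difference in 9 of the 10 members, Dusp1 being the exception, and in 75.8% of all features tested both ways. In edgeR 3 of 10 then passed at an adjusted p under 0.05, Dusp6 and Myc higher and Jun lower after afatinib, where 10.2% of all tested features passed. DESeq2 called 5 of 10, the same 3 with Junb and Ccnd1, both higher, where 25.0% of features passed. In this set of 5 libraries the groups did not overlap in 5 members, which are again those 5, against 55.1% of all features. Leaving out vehicle replicate 3 likewise gave 5 members without overlap, Fos, Egr1, Dusp6, Myc and Ccnd1, all higher, against 39.2% of all features in either direction and 18.8% in this one, and none of these then passed in edgeR.

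**Figure D3:**
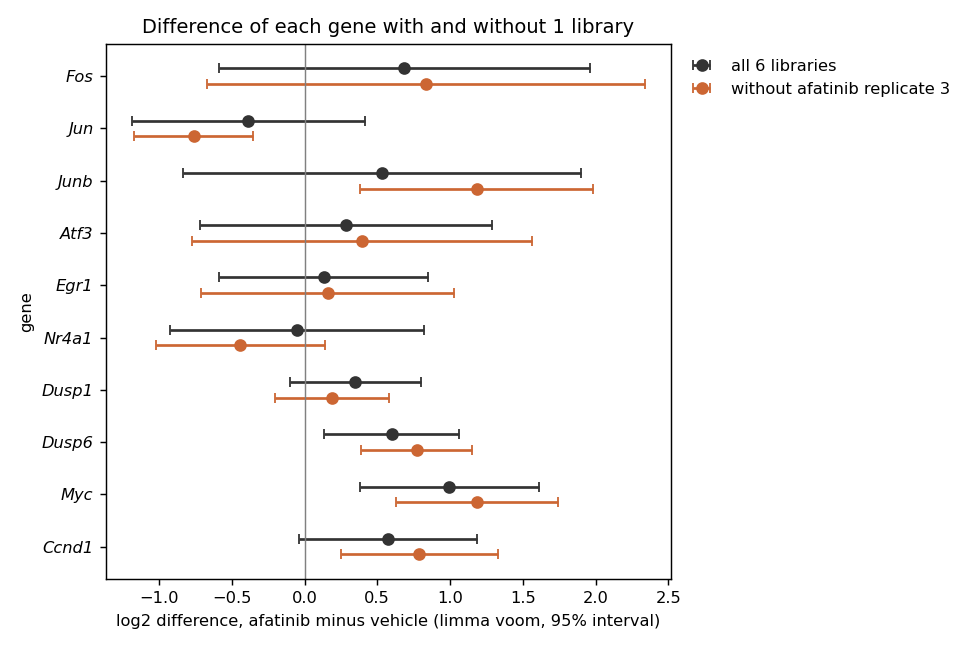
Difference between afatinib and vehicle (horizontal axis, log2, limma voom estimate with its 95% interval, not adjusted for multiple tests) for the 10 genes (vertical axis) with all 6 libraries in black and without afatinib replicate 3 in orange. With all libraries the intervals of Dusp6 and Myc exclude 0, and without that library those of Jun, Junb and Ccnd1 do too. The library left out was singled out by these same data.

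The members also differed in how far the libraries of one group lay apart. In vehicle libraries, the coefficient of variation was 52.2% for Fos, 49.3% for Atf3 and 46.0% for Egr1. It was 2.47% for Dusp6 and 8.67% for Dusp1. Features of like mean CPM (within 1.5 times that of each member) had medians between 9.98% and 13.3% in vehicle libraries. In this group 7 of the 10 members lay above the median of their like features, the exceptions being Jun, Dusp1 and Dusp6. In 7 of the 10 members vehicle replicate 3 was the highest and vehicle replicate 2 the lowest of their group. They were Fos, Jun, Junb, Atf3, Egr1, Myc and Ccnd1. This order was found in 23.4% of all tested features. It was not planned before the values were seen, and no test was made of it. In afatinib libraries the coefficient was 68.1% for Junb, 61.0% for Fos, 49.7% for Nr4a1 and 47.4% for Jun, and 9 of 10 members lay above medians of 14.6% to 20.4%, Egr1 being the exception. Afatinib replicate 3 carried much of this in some genes: with replicates 1 and 2 alone the coefficient was 9.45% for Nr4a1, 16.6% for Jun and 38.9% for Junb, while it was 68.9% for Fos. The medians of like features were then 8.92% to 11.7%, and 9 of the 10 members still lay above the median of their like features. Counting alone gives a coefficient of 8.74% at the lowest count of any member, the 131 Atf3 reads of vehicle replicate 2. For Dusp6 in vehicle libraries it gives 4.12% at the lowest count, above the observed 2.47%, which was 4.48% on raw library totals.

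**Figure D4:**
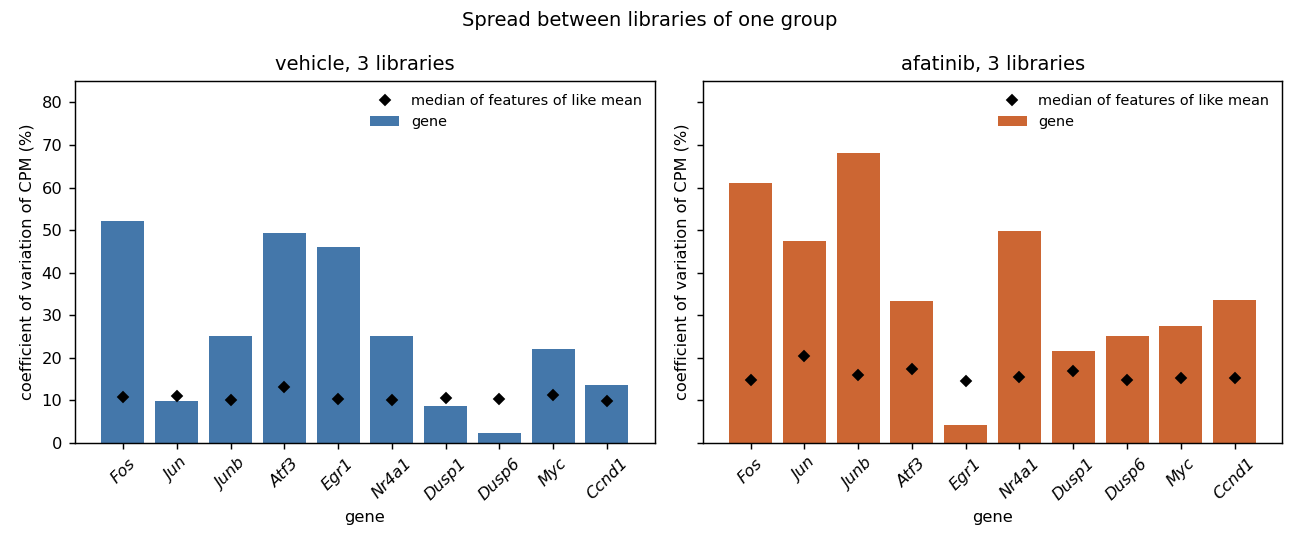
Coefficient of variation of CPM between the 3 libraries of a group (vertical axis, percent) for each gene (bars), with the median over features of like mean CPM (diamonds), for vehicle on the left and afatinib on the right. Fos, Atf3 and Egr1 have the tallest bars in vehicle, and Junb and Fos in afatinib libraries.

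The libraries that were highest were not shared by all members. Of the 10 genes, 6 were highest in afatinib replicate 1 (Fos, Junb, Atf3, Dusp6, Myc and Ccnd1), 3 in afatinib replicate 3 (Jun, Nr4a1 and Dusp1) and 1 in vehicle replicate 3 (Egr1). Vehicle replicate 2 was the lowest library for 5 of them (Fos, Egr1, Atf3, Myc and Ccnd1). The same shares over all tested features were not computed, so these counts cannot be read as particular to the members. Afatinib replicate 1, the highest for Junb and Fos, was at the same time the lowest for Jun. Afatinib replicate 1 also had the smallest share of counts in its 10 most abundant features (10.6%) and afatinib replicate 3 the largest (20.6%), against 16.2% to 18.5% in vehicle libraries. The part of this in the members' values was not tested.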

How the data were processed

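RNA sequencing of rat back skin gave 6 libraries, 3 per group. The deposited values are raw read counts per gene, 1 table per library. The submitters' processing notes name HISAT2 2.0.5, featureCounts 1.5.0-p3 and DESeq2 1.16.1 and give no settings. The sources used here give no build, annotation or strand setting, so reads shared with overlapping genes or copies cannot be told apart. The column headings number the afatinib libraries 3 to 5 where the titles, followed here, number them 1 to 3.

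From the deposited counts, low features were removed with filterByExpr and library sizes were scaled by TMM. The treatment difference was tested with a robust quasi-likelihood fit in edgeR 4.0.16 (R 4.3.3) on group alone, with Benjamini-Hochberg adjustment over 15497 features. Intervals and standard errors come from limma 3.58.1 (voom). DESeq2 1.42.0, other scalings and filters, the replicate block and each library left out were alternatives; raw totals were added after seeing the data. Procedures were tested on simulated data. Of a library, 3 counts made 0.162 to 0.196 CPM; such values cover counting error only.

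The rule named all 10 members. Members and lists were chosen with earlier results of these data known. The lists of other pathway genes and of cell type markers, and the genes of most similar pattern, were not analysed here, since the reference table (47357 genes, GRCr8) held an Ensembl identifier for 0 of them. Promoter sequences are from RefSeq; proteins were not used here.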

Additional observations from a re-analysis of the deposited data

How the results depend on the processing

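With edgeR, no member passed under RLE, upper quartile or raw scaling, no filter, the 5 CPM filter, no robust option or the replicate block, nor in limma voom. DESeq2 called 1 member and 1032 features. With 1 library left out, edgeR called 0 to 3 members and 0 to 1627 features, with 2 to 5 members at an unadjusted p under 0.05, and DESeq2 called 0 to 5 members and 270 to 4085 features, with 2 to 5 members at an unadjusted p under 0.05. The highest counts of calls were without afatinib replicate 3. For an unadjusted p under 0.05 the share of all features was computed only with all libraries (19.5% in edgeR). Members without overlap numbered 2 to 5. Of all tested features, 26.2% had no overlap with all libraries, 39.2% without vehicle replicate 3 and 55.1% without afatinib replicate 3. The last 2 of these settings gave 5 members, and the share was not computed for the others. Libraries of like number did not deviate together (correlations of 0.20, -0.21 and -0.39 for numbers 1, 2 and 3; only number 1 was the best match of its own), so the numbers were not taken to pair them. With the replicate block DESeq2 called 0 members and 372 features, and the Nr4a1 difference was -0.067 in edgeR and -0.057 in DESeq2. The sign of small log2 differences changed: with upper quartile scaling Egr1 was at -0.0036 and Nr4a1 at -0.0074, and in limma voom Nr4a1 was at -0.052. With 1 library left out, edgeR gave -0.17 to 0.48 for Egr1, -0.10 to 0.63 for Atf3 and -0.47 to 0.25 for Nr4a1, and DESeq2 gave -0.16 to 0.49, -0.089 to 0.64 and -0.46 to 0.26. The cause was not tested. The other 7 members kept their direction under all alternatives. With 3 libraries per group, the spread between libraries rather than the counting error limits most of these values. For Dusp6 in vehicle libraries the coefficient of variation (2.47%) was below that of counting alone (4.12%). For Egr1 in afatinib libraries it (4.23%) was near that of counting (3.73%).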
